A study of Mus musculus with 2 samples.

Results

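The T cells described here carried RNA for interferon gamma together with RNA for the chemokines Ccl3 or Ccl4. They were found in 2 single-cell libraries of CD8 T cells from the mouse mammary fat pad. A cell was counted as a T cell with at least 1 UMI (unique molecular identifier, standing for 1 captured RNA molecule) of Cd3d, Cd3e or Cd3g. Among T cells, the members were those with at least 1 Ifng UMI and at least 2 summed UMIs of Ccl3 and Ccl4. There were 975 members among 5488 T cells, 395 of 2991 in the parous library and 580 of 2497 in the virgin library. The other 2596 parous and 1917 virgin T cells are called the remaining T cells. Since Ifng, Ccl3 and Ccl4 chose the members, their levels are given as a description.

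Both libraries came from untreated C57BL/6 mice with no genetic change named. The mice were either parous (labelled multiparous, with more than 1 pregnancy) or virgin. Live CD45+ TCRB+ CD8a+ cells of the 4th mammary fat pad were isolated by sorting and went into the droplets without culture. Their ages and the time since the last pregnancy are not stated in the labels. Each group was 1 library from a pool of at least 5 mice. No difference between groups or between cell sets therefore has a replicate check, and none was tested. The intervals are exact 95% intervals for counting error only (Poisson or Clopper-Pearson). They do not cover differences between mice or cell preparations, and they are too narrow where many UMIs come from few cells.

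Interferon gamma is the main cytokine by which CD8 T cells act on macrophages and on tissue cells, which respond by raising antigen presentation. Ccl3 and Ccl4 are inflammatory chemokines that draw in monocytes and other T cells. Memory CD8 T cells transcribe these genes quickly after the T cell receptor is engaged, and interleukin-12, interleukin-15 and interleukin-18 can add to or replace that signal for Ifng. Their messages carry AU-rich elements and are short-lived, so the RNA in a cell reflects recent transcription and does not show that the protein was secreted.

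Ifng (ENSMUSG00000055170) lies on chromosome 10 (118441046 to 118445892, plus strand, GRCm38, the assembly that mm10 names). Ccl3 and Ccl4 are neighbours on chromosome 11 and are read in opposite directions. Ccl3 (ENSMUSG00000000982) spans 83647844 to 83649355 on the minus strand and Ccl4 (ENSMUSG00000018930) 83662584 to 83664683 on the plus strand, with 13228 bases between them. Xcl1, a further chemokine gene described with the members, lies on chromosome 1 (164931644 to 164935527, minus strand). The 250 bases upstream of the RefSeq start of Ifng, Ccl3 and Xcl1 are shown because 2 of these genes chose the cells and Xcl1 is a further T cell chemokine measured in them. Capitals mark matches, on either strand, to the NFAT core GGAAA and to the TATA box TATAAA. The AP-1 site TGANTCA was searched for too.
Ifng upstream, chr10:118440796-118441045, plus strand, GRCm38.p6: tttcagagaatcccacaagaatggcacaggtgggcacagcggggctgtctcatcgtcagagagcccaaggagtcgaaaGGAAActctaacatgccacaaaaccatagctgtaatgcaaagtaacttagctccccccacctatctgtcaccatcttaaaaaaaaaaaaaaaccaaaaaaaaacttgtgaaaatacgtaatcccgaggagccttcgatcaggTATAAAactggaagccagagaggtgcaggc
Ccl3 upstream, chr11:83649379-83649628, minus strand, GRCm38.p6: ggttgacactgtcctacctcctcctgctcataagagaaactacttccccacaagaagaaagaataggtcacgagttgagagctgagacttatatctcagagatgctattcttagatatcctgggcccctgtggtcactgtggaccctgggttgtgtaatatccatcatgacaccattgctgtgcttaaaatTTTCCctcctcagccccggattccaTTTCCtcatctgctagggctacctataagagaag
Xcl1 upstream, chr1:164935523-164935772, minus strand, GRCm38.p6: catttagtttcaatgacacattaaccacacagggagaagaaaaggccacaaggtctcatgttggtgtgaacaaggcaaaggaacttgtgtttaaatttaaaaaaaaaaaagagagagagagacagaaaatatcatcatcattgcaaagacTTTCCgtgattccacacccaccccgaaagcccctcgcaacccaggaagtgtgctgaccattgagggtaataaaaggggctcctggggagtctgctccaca
The Ifng window held 1 GGAAA match, starting 172 bases before the start site, and 1 TATAAA match starting 30 bases before it. In the Ccl3 window the core stood on the opposite strand (printed as TTTCC) at 59 and at 34 bases, and in the Xcl1 window once, at 100 bases. No match overlapped another, and no window held TGANTCA. Of all 32851 upstream windows of this length, 55.6% held GGAAA, 6.75% TGANTCA and 12.4% TATAAA, so a GGAAA match is common. A match describes the letters and is not a measured binding site.

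Within the members Ccl4 gave most of the chemokine UMIs. Parous members had a median of 2 Ifng UMIs (highest 14), and virgin members a median of 3 (highest 68). Ccl4 had medians of 5 UMIs in parous members (highest 398) and 7 in virgin members (highest 371). Ccl3 had a median of 0 UMIs in both libraries and reached 18 and 29. Few cells therefore owed their place to Ccl3. It was the only one of the chemokines in 8 parous and 9 virgin members, Ccl4 was the only one in 66.1% (61.2 to 70.7) and 63.8% (59.7 to 67.7), and both were found in 31.9% and 34.7%.

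Ccl4 was also very unevenly spread. The tenth of the members with the most Ccl4 UMIs (40 parous and 58 virgin cells) held 51.3% and 49.6% of the members' Ccl4 UMIs, and the like share for Ifng was 32.6% and 36.4%. In counts per 1000000 UMIs (CPM), members held 562 (parous) and 456 (virgin) of Ifng against 82.7 and 79.6 in the remaining T cells. Ccl4 stood at 2285 and 1760 CPM against 305 and 195, and Ccl3 at 208 and 140 CPM against 29.7 and 20.8. Per UMI the parous members thus held more of all 3 messages than the virgin members. The rule asks for the same minimum of UMIs at any depth, and that minimum is a larger part of a shallower cell. With median members at 4070 (parous) and 6768 (virgin) UMIs, this order cannot be separated from the rule. Over all T cells, where the rule plays no part, the virgin library had 184 CPM of Ifng and the parous library 149, and Ccl4 stood at 629 and 577 CPM. Ccl3 was at 53.9 and 54.2 CPM.

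**Figure D1:**
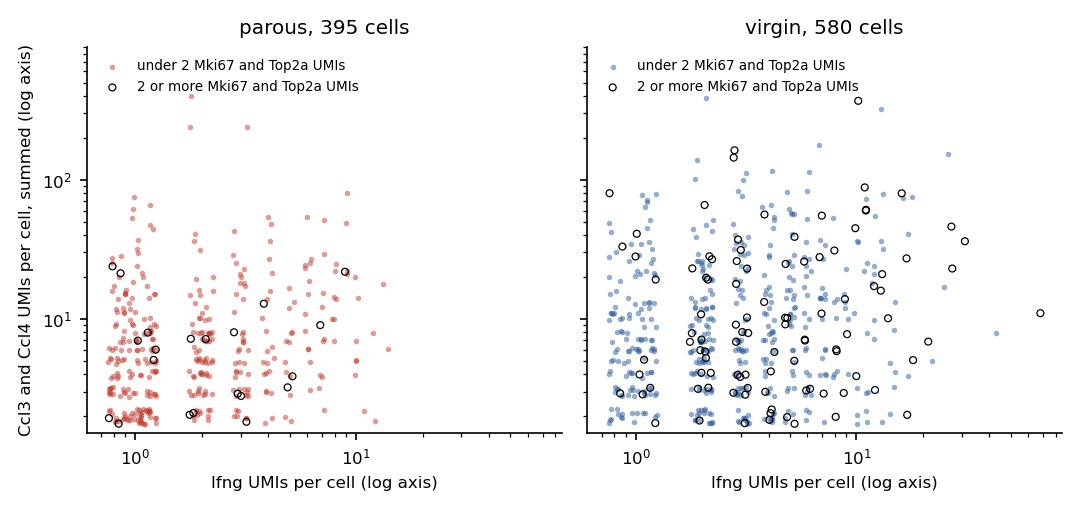
Ifng UMIs (x axis, log) against summed Ccl3 and Ccl4 UMIs (y axis, log) in each of the 395 parous (left) and 580 virgin (right) members, with a small random offset so that cells with equal counts can be seen. Black rings mark cells with 2 or more Mki67 and Top2a UMIs, 21 parous and 100 virgin members. The medians of Ifng are 2 and 3 UMIs, and the highest Ccl4 counts are 398 and 371 UMIs.

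The 3 messages were also frequent outside the rule. The T cells just inside it, with 1 Ifng and 2 chemokine UMIs, numbered 46 (parous) and 17 (virgin). Just outside it were 130 and 118 T cells with Ifng and 1 chemokine UMI. A further 386 parous and 248 virgin T cells had at least 2 chemokine UMIs without Ifng, and 375 and 264 had Ifng without either chemokine. Members held 52.0% of the Ifng, 52.8% of the Ccl3 and 54.4% of the Ccl4 UMIs of all parous T cells, and 68.7%, 72.1% and 77.6% of those of virgin T cells. The remaining T cells thus included many that transcribed 1 or more of the 3 genes, more so in the parous library.

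The share of T cells that met the rule was higher in the virgin library, at 23.2% (21.6 to 24.9) against 13.2% (12.01 to 14.5). The gap was smaller when cells were thinned to the same depth, but not in every range of the cells' own UMIs. The median T cell had 7005 UMIs in the virgin and 4116 in the parous library. With every cell thinned at random to 2500 UMIs the shares were 10.99% (9.77 to 12.3) and 8.78% (7.71 to 9.94). At 1400 UMIs they were 6.40% (5.46 to 7.45) and 4.74% (3.98 to 5.59), so the virgin share was 1.76 times the parous one with all UMIs, 1.25 times at 2500 and 1.35 times at 1400 UMIs. Thinning to 1400 UMIs left out 119 parous and 12 virgin T cells that were shallower, and a T cell also needed a Cd3 UMI among its thinned counts. Among cells of like UMIs, the virgin share was the higher one in 6 of the 7 ranges from 1000 to 20000 UMIs, such as 31.1% against 13.98% at 3000 to 4000 UMIs and 48.7% against 28.1% at 12000 to 20000 UMIs. The exception was 8000 to 12000 UMIs, with 13.4% (10.8 to 16.3) of virgin and 17.2% (11.7 to 23.9) of parous T cells.

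Free RNA in the droplets can add to such shares, and its amount was not measured here. T cells with both Ccr7 and Lef1 UMIs, a naive pattern in which Ifng RNA is usually low, met the rule in 1.57% (parous, median 5138 UMIs) and 4.28% (virgin, median 7827 UMIs) of cases, against 16.0% and 38.1% of the other T cells (medians 3867 and 6040.5 UMIs). At 1400 UMIs 0 of 209 parous and 1 of 437 virgin cells with both genes met it. Of the other T cells, 5.12% (4.31 to 6.04) of parous and 7.77% (6.63 to 9.03) of virgin ones did. Both genes had to be found in the thinned counts, and with all UMIs the set held 573 parous and 1099 virgin cells. The other T cells at 1400 UMIs thus include cells that held both genes with all UMIs. Among T cells without both genes in their thinned counts the virgin share was the higher one, in 1 library each.

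**Figure D2:**
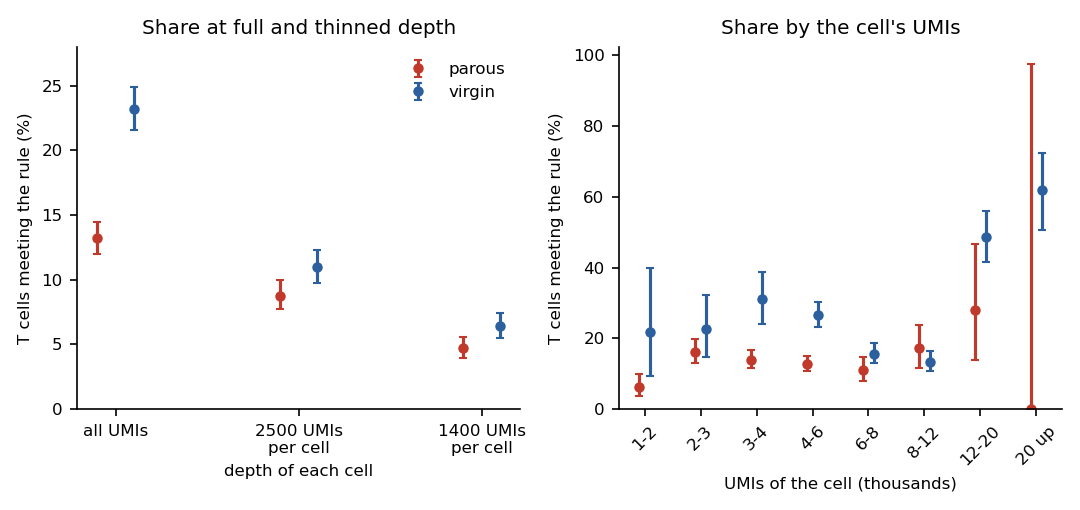
Share of T cells that met the rule (y axis, percent) in the parous (red) and virgin (blue) library. Left, with all UMIs and with each cell thinned to 2500 or 1400 UMIs; right, by the cell's own UMIs. Bars are exact 95% intervals for counting error. With thinning the gap narrows from 13.2% against 23.2% to 4.74% against 6.40%, and the 20000 and up bin holds 1 parous T cell.

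The members looked like CD8 T cells by the genes that define them. Cd8a or Cd8b1 had at least 1 UMI in 379 of 395 parous members and in 575 of 580 virgin members (95.9% and 99.1%). Cd4 had 3 UMIs in parous and 0 in virgin members, and Foxp3 had 0 UMIs in parous members but was found in virgin members. Of 7 B cell markers Cd79a and Pax5 were among those at 0 in the members of both libraries, of 13 myeloid markers Adgre1, S100a8, S100a9 and Fcgr1 were at 0, and of 11 epithelial markers all keratins of the list but Krt18 were at 0. In members and remaining T cells the summed level was 53.4 and 95.2 CPM (parous) and 49.1 and 149 CPM (virgin) for the B cell list, and 83.4 and 53.7 CPM and 111 and 29.0 CPM for the myeloid list. Of the myeloid genes measured, 2 of 4 were higher and 1 lower in parous members and 2 of 3 higher in virgin members (medians 0.83 and 1.78), and 30 parous and 87 virgin members (7.59% and 15.0%) held at least 2 myeloid UMIs. At least 2 B cell marker UMIs were held by 23 parous and 67 virgin members (5.82% and 11.6%). The part in the results of members with B cell or myeloid UMIs was not tested. The epithelial list summed to 16.4 and 62.1 CPM (parous) and 6.52 and 4.31 CPM (virgin), the list for adipocyte, stromal and endothelial cells to 12.5 and 25.1 CPM and 17.4 and 43.7 CPM, and the 5 erythroid genes to at most 0.905 CPM.

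The other 3 marker lists hold genes that CD8 T cells also express. The gamma-delta list summed to 192 CPM in parous members against 107 in the remaining T cells, and to 84.7 against 50.2 CPM in the virgin library, while Trdc, the delta chain constant gene, had 1 UMI in the members of each library. The Tcrg-C genes behind those sums are near copies of each other, so reads may be split between them. The NK list summed to 829 against 732 CPM (parous) and 220 against 125 CPM (virgin), and the CD4 and regulatory T cell list to 50.1 against 43.8 and 65.9 against 37.9 CPM. At least 2 UMIs of the CD4 and regulatory T cell list were held by 18 parous and 74 virgin members (4.56% and 12.8%). Typical cells of these kinds lie outside the sort gate of TCRB+ CD8a+ cells, and their part in the results was not tested.

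Members had nearly the depth of the remaining T cells in the parous library (medians 4070 and 4124.5 UMIs) but a longer upper tail in the virgin library, where the medians were 6768 and 7047 UMIs and the means 9523 and 7508. The libraries shared 18 cell barcodes, 2 of them among members. Scrublet, a doublet caller, marked 2 parous and 12 virgin cells, 7 of these members, far under the expected rate of 0.06. Why so few were marked was not tested. No cell was removed as a doublet, so doublets may remain among the members.

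Set against the remaining T cells of the same library, members held more RNA for genes induced by the T cell receptor, and less for genes of naive, lymph node-homing T cells. A gene was counted as higher or lower past a 1.5-fold ratio of CPM, with 0.5 added to each count. In the parous library 666 of 8746 genes measured were higher (7.61%) and 327 lower (3.74%). In the virgin library 1994 of 10798 were higher (18.5%) and 943 lower (8.73%). The median log2 ratio over all genes was 0.12 (parous) and 0.19 (virgin), and when the ratios were centred on that median 404 parous genes were higher and 490 lower, and 1284 and 1440 virgin genes. Of 8196 named genes measured in both libraries, 316 were higher in both and 121 lower in both, while 9 were higher in parous and lower in virgin members and 15 the reverse.

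How the remaining T cells were made up differed between the libraries. Cells with both Ccr7 and Lef1 were 564 of the 2596 remaining parous T cells and 1052 of the 1917 remaining virgin T cells, but 9 parous and 47 virgin members. With these cells left out of both sets, the genes higher in virgin members went from 18.5% to 8.42% and those higher in parous members from 7.61% to 5.41%. For part of the lists and genes below, the ratio without the Ccr7 and Lef1 cells is therefore given too. Where it is not given, the ratio includes these cells and may differ without them.

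Of 24 naive and lymph node homing genes, 14 of 23 measured were lower in parous members and 22 of 24 in virgin members, and none was higher. The list's median log2 ratio was -0.88 and -1.88, and -0.37 and -0.997 without the Ccr7 and Lef1 cells, a set that Ccr7 and Lef1 themselves define. Ccr7, the receptor that guides T cells into lymph nodes, stood at 72.5 CPM in parous members against 366 in the remaining T cells, and at 76.9 against 671 CPM in the virgin library. S1pr1, needed for T cells to leave tissues, gave log2 ratios of -1.21 and -1.51, and Il7r, the interleukin-7 receptor of naive and long-lived memory cells, -0.91 and -1.80. These 3 stayed lower without the Ccr7 and Lef1 cells, where Il7r reached -0.37 in the parous library, short of 1.5-fold.

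The smallest ratio in both libraries was that of Igfbp4, a growth factor binding protein transcribed by naive T cells, with 2 UMIs in parous members (ratio 0.0325, interval 0.00314 to 0.0944) and 34 in virgin members (log2 ratio -4.72). Ifngr2, the signalling chain of the interferon gamma receptor, ranked next. It was at 2.73 CPM (5 UMIs) in parous members against 23.0 CPM, and at 3.44 CPM (19 UMIs) in virgin members against 51.6 CPM, log2 ratios of -2.94 and -3.87. Without the Ccr7 and Lef1 cells these were -1.59 and -3.07. The ligand-binding chain Ifngr1 was at 631 against 683 CPM and 528 against 442 CPM, so of the receptor's chains it was Ifngr2 whose RNA was low in members. Other genes lower by the fixed rule in both libraries were H2-Ob, Il6ra, Dapl1, Plaur, Igf1r, Maml3, Sh3bp5, Tmem108 and Tdrp. Auts2 and Lypd6b had 0 UMIs in parous members, at least 6.37-fold and at least 3.93-fold lower than in the remaining T cells when 3 UMIs over all members are taken as the floor.

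**Figure D3:**
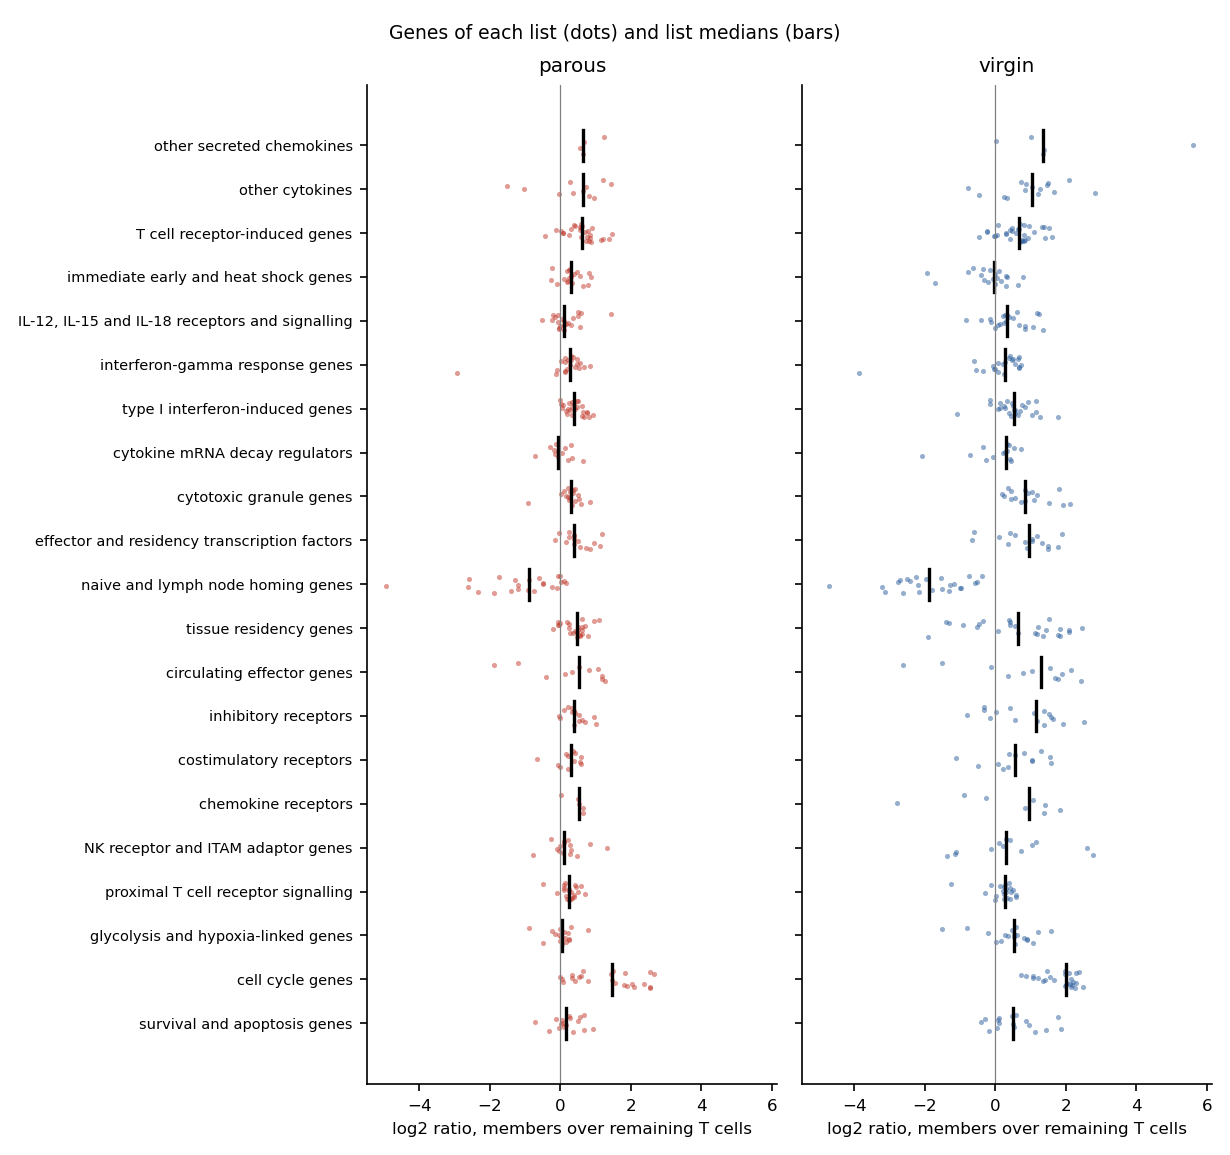
Log2 ratio of CPM in members over remaining T cells (x axis) for the measured genes of 21 gene lists (rows), in the parous (left) and virgin (right) library. Each dot is 1 gene and the black bar is the list's median. The naive list lies left of 0, at -0.88 and -1.88, and the cell cycle list farthest right, at 1.47 and 1.997.

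Genes that T cell receptor signals induce were higher in members of both libraries. Of 32 on the list, 15 of 28 measured were higher in parous and 18 of 32 in virgin members, and none was lower, with medians of 0.61 and 0.69 against 0.12 and 0.19 over all genes. Without the Ccr7 and Lef1 cells 11 of 28 and 8 of 32 were higher, 1 virgin gene was lower, and the medians were 0.42 and 0.24, against 0.06 and 0.07 over all genes. The orphan nuclear receptors Nr4a1, Nr4a2 and Nr4a3 are among the first genes transcribed after receptor engagement. Nr4a1 was at 693 against 377 CPM in the parous and 406 against 251 CPM in the virgin library, and Nr4a2 at 949 against 542 and 439 against 247 CPM. Nr4a3 gave log2 ratios of 0.72 and 0.77.

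Other genes of this list pointed the same way in both libraries. Irf4, whose level follows the strength of the receptor signal, was at 44.1 against 19.0 CPM and 48.9 against 25.7 CPM, 2.33-fold (1.78 to 3.01) and 1.90-fold (1.62 to 2.23), and gave log2 ratios of 1.10 and 1.08 without the Ccr7 and Lef1 cells. Egr2, an early growth response factor tied to the limits of activation, gave 1.37 and 0.77 from 24 and 69 UMIs in members, and 1.56 and 1.41 without those cells. Nfkbid, an atypical nuclear inhibitor of NF-kB, was 2.75-fold (2.36 to 3.19) and 1.77-fold (1.61 to 1.95) higher. Tnfrsf9, the costimulatory receptor 4-1BB, was at 136 against 91.2 CPM and 82.7 against 27.4 CPM. Bhlhe40, a factor that T cells need for full cytokine release, was at 386 against 250 CPM and 420 against 161 CPM.

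For a few genes of the list the values of the libraries parted. Cd69, an early activation marker that also holds T cells in tissue, was at 546 against 307 CPM in the parous library and at 618 against 617 CPM in the virgin library. Tagap gave log2 ratios of 0.78 and -0.23, and Myc 0.74 and -0.46. The level of all 3 in remaining T cells was lower in the parous library (log2 parous over virgin -1.01, -1.53 and -1.65). The 20 immediate early and heat shock genes gave 4 higher and none lower in parous members and 2 higher and 4 lower in virgin members (medians 0.29 and -0.04). With counts thinned to 1400 UMIs, 6 of 17 were higher in parous members and 5 higher and 2 lower in virgin members, with medians of 0.43 and 0.39. Jun was at 336 against 267 CPM in the parous library but at 162 against 528 CPM in the virgin library, while Fos was at 966 against 616 and 1399.5 against 1136 CPM. Tissue digestion and sorting can induce these genes, and their part here was not tested.

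Gadd45b stood out among the genes of the interleukin-12, interleukin-15 and interleukin-18 receptor list. It encodes a stress-response protein that acts on the p38 kinase pathway, through which T cells sustain Ifng transcription. It was at 348 CPM in parous members against 130 CPM, 2.68-fold (2.44 to 2.94), and at 223 against 94.2 CPM in the virgin library, 2.37-fold (2.19 to 2.56). With every cell thinned to 1400 UMIs, 29.2% of parous members had a Gadd45b UMI against 13.9% of remaining T cells, and 20.3% against 9.33% in the virgin library. Without the Ccr7 and Lef1 cells the log2 ratios were 1.33 and 0.98. It was the only 1 of the 22 genes of this list past 1.5-fold in parous members, while 8 were higher and 1 lower in virgin members (list medians 0.11 and 0.32).

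The cytokine receptors themselves differed less. Il12rb2, the signalling chain of the interleukin-12 receptor, was at 94.3 against 96.5 CPM (parous) and 74.2 against 41.4 CPM (virgin), the latter a log2 ratio of 0.84 that was 0.06 without the Ccr7 and Lef1 cells. Il18r1, the binding chain of the interleukin-18 receptor, gave -0.04 and -0.01, and Il18rap, its partner chain, 0.56 and 1.08. Stat4, which carries the interleukin-12 signal, gave 0.23 in both libraries.

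Interferon gamma response genes lay only a little above the median of all genes (0.12 and 0.19), and genes induced by type I interferon lay further above it. Of all genes 7.61% (parous) and 18.5% (virgin) were higher. Of 23 interferon gamma response genes, 2 of 21 were higher and 1 lower in parous members and 5 of 22 higher and 2 lower in virgin members (medians 0.26 and 0.27). Of 28 genes induced by type I interferon, 8 of 25 were higher in parous members and 10 of 26 higher and 1 lower in virgin members (medians 0.39 and 0.52). Once the Ccr7 and Lef1 cells were left out, 4 parous genes were higher, and 1 virgin gene was higher and 1 lower (medians 0.28 and 0.13). Ifit1, an RNA sensor of this response, gave 0.81 and 1.77, and Ifit3 0.92 and 1.04. Irf1 was at 238 against 217 CPM and 273 against 261 CPM. Among 15 regulators of cytokine mRNA decay the medians were -0.06 and 0.30, with 1 higher and 1 lower of 13 in parous and 1 higher and 2 lower of 14 in virgin members. Zfp36, whose protein tristetraprolin binds the AU-rich elements of Ifng and Tnf messages, was the parous gene past 1.5-fold (453 against 289 CPM, and 502 against 368 CPM in virgin).

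Several chemokine and cytokine genes that the rule did not use were higher in members. Of 17 other secreted chemokines, 3 of 4 measured were higher in parous and 4 of 5 in virgin members, with medians of 0.66 and 1.36. With the Ccr7 and Lef1 cells left out they were 2 of 4 and 1 of 5 (medians 0.63 and 0.36), and of the other cytokines 4 of 11 were higher and 1 lower in parous and 7 of 17 higher and 1 lower in virgin members (medians 0.33 and 0.50). Xcl1, which attracts cross-presenting dendritic cells through the receptor Xcr1, was at 950 against 647 CPM in the parous and 361 against 139 CPM in the virgin library. The log2 ratios of 0.55 and 1.37 became 0.20 and 0.40 without the Ccr7 and Lef1 cells, and 5 cells held 38.5% of the virgin members' Xcl1 UMIs. Ccl5, a chemokine abundant in memory CD8 T cells, was already at 12648 CPM in remaining parous T cells and stood at 19626 CPM in members, and at 15705 against 6119 CPM in the virgin library.

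Cxcl10, an interferon-induced ligand of Cxcr3, was at 63.2 against 26.7 CPM and 38.9 against 19.4 CPM, but 5 cells held 77.6% and 66.0% of its UMIs in members. In virgin members without Mki67 or Top2a cells it gave -0.29. Ccl1, which binds Ccr8, had 476 UMIs in 8 virgin members, 317 of them in 1 cell, and 1 UMI in parous members.

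Of 26 other cytokine genes, 6 of 11 measured were higher and 2 lower in parous members and 11 of 15 higher and 1 lower in virgin members, with medians of 0.65 and 1.04. With members chosen on counts thinned to 1400 UMIs the virgin median was -0.19. Tnf, the cytokine that memory T cells most often release with interferon gamma, was at 55.0 against 28.4 CPM in the parous library, 1.95-fold (1.54 to 2.43). In the virgin library it was at 42.7 against 33.9 CPM, 1.26-fold (1.07 to 1.48). Tnfsf14, which encodes the lymphotoxin family ligand LIGHT, was 2.70-fold (1.84 to 3.85) and 2.80-fold (2.20 to 3.56) higher. Fasl, the ligand that kills cells through Fas, was at 390 against 249 CPM and 336 against 138 CPM. At 1400 UMIs 45.6% of parous members had a Fasl UMI against 29.5% of the remaining T cells, and 43.0% against 17.3% in the virgin library.

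Il2 was low in both libraries, at 14.2 against 11.2 CPM (parous) and 23.4 against 10.0 CPM (virgin), and its virgin log2 ratio of 1.22 became 0.11 without the Ccr7 and Lef1 cells. Csf2, which encodes the growth factor GM-CSF, had 2 UMIs in parous and 34 in virgin members. Csf1, the macrophage growth factor, had 3 and 64 UMIs and was 7.15-fold (4.44 to 12.2) higher in virgin members than in the remaining T cells. Lta gave log2 ratios of 0.80 and 0.23, and Ltb, which naive T cells also transcribe, -0.03 and -0.47.

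Genes of cell killing differed more in the virgin than in the parous library, as did all genes (18.5% against 7.61% higher). Of 22 cytotoxic granule genes, 2 of 18 measured were higher and 1 lower in parous members (median 0.30), and 11 of 17 were higher in virgin members (median 0.85). Gzmb, the granzyme that starts apoptosis in target cells, was at 808 against 538 CPM (parous) and 645 against 147 CPM (virgin). Gzma was at 1932 against 1545 CPM and 1235 against 328 CPM, and Gzmk, a granzyme of memory cells, at 362 against 201 CPM and 290 against 100 CPM. For these 3 granzymes the members of the 2 libraries lay closer together than the remaining T cells did. Without the Ccr7 and Lef1 cells Gzmb gave 0.21 and 1.04, Gzma -0.06 and 0.80, and Gzmk 0.50 in both libraries. The granule list then had medians of 0.07 and 0.25, against 0.06 and 0.07 over all genes. With members chosen on thinned counts Gzmb gave -0.05 in the parous library. Prf1, the pore-forming protein, gave 0.24 and 0.85.

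The transcription factors of effector cells followed. Of 17 effector and residency factors, 5 of 16 were higher in parous members and 10 of 16 higher and 2 lower in virgin members (medians 0.40 and 0.96). Tbx21 encodes T-bet, which drives Ifng transcription, and was at 216 against 121 CPM and 245 against 86.7 CPM. Prdm1 (Blimp-1), Zeb2 and Id2, factors of effector differentiation, gave 1.11, 1.18 and 0.96 in parous and 1.51, 1.88 and 1.31 in virgin members. All 4 were at least 0.51 without the Ccr7 and Lef1 cells. Zfp683, which encodes the residency factor Hobit, gave 0.56 and 1.78, and Eomes 0.72 and 0.88.

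Inhibitory receptors that follow activation were higher as well, 4 of 15 in parous and 9 of 16 in virgin members, with 1 virgin gene lower (medians 0.39 and 1.15). Havcr2 (Tim-3) was at 15.8 against 3.56 CPM in the parous library, 4.46-fold (2.66 to 7.32) from 29 UMIs in 23 members, and 19.6 against 3.405 CPM in the virgin library, 5.71-fold (4.06 to 8.22). The parous count was under the minimum for the list. Lag3 was at 44.1 against 22.1 CPM and 51.8 against 13.7 CPM, Tigit at 200 against 124 and 111 against 48.8 CPM, and Pdcd1, which encodes PD-1, at 117 against 89.9 and 76.6 against 29.6 CPM. Without the Ccr7 and Lef1 cells Havcr2 gave log2 ratios of 1.80 and 1.501 and Lag3 0.65 and 0.91, while Pdcd1 gave 0.04 and 0.40.

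Chemokine receptors, by which T cells find inflamed tissue, were higher in part. Ccr1, a receptor of Ccl3, had 0 UMIs in all T cells of both libraries. Of 12 chemokine receptors, 2 of 5 measured were higher in parous members and 5 of 8 higher and 2 lower in virgin members (medians 0.53 and 0.96, and 0.18 and -0.12 without the Ccr7 and Lef1 cells). Costimulatory receptors gave 0 higher and 1 lower of 12 in parous and 6 higher and 1 lower of 13 in virgin members (medians 0.29 and 0.55).

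The genes of tissue residency were not uniform. Of 25, 8 were higher in parous members, and 13 were higher and 4 lower in virgin members (medians 0.47 and 0.64). Itga1 (CD49a), an integrin chain that binds collagen, stood at 104 against 70.2 CPM (parous) and 65.0 against 18.2 CPM (virgin), and Cxcr6, which holds T cells near Cxcl16, at 291 against 168 and 282 against 110 CPM. Itgae, the chain CD103 that binds E-cadherin on epithelium, went the other way between libraries: 111 against 80.7 CPM in the parous and 6.70 against 25.6 CPM in the virgin library. Itgae was thus more abundant in members of the parous library and less abundant in members of the virgin library, though the parous ratio of 1.38 (1.18 to 1.604) was under 1.5-fold. These values include the Ccr7 and Lef1 cells, which were 54.9% of the remaining virgin T cells and 8.10% of virgin members. In the parous library they were 21.7% and 2.28%. The part of these cells in the Itgae ratios is not given here.

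Circulating effector genes gave 5 higher and 2 lower of 11 in parous and 8 higher and 2 lower of 12 in virgin members (medians 0.53 and 1.30). S1pr1 was 1 of the 2 lower genes in each library. Klrg1, a marker of short-lived effector cells, was at 50.1 against 20.7 CPM and 262 against 49.0 CPM, and Cx3cr1, a receptor of effector cells that patrol vessels, at 18.5 against 8.25 and 55.2 against 17.0 CPM.

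The remaining lists lay nearer to all genes. NK receptor and ITAM adaptor genes had medians of 0.10 and 0.31 (2 higher and 1 lower of 15, and 5 higher and 3 lower of 13), and proximal T cell receptor signalling genes 0.25 and 0.27 (2 of 21 higher, and 1 higher and 1 lower of 21). Glycolysis and hypoxia-linked genes had medians of 0.04 and 0.53 (1 higher and 1 lower of 17, and 7 higher and 2 lower of 19), and survival and apoptosis genes 0.17 and 0.51 (3 higher and 1 lower of 17, and 6 higher of 17). Cd8a, the coreceptor chain, was 1.41-fold (1.32 to 1.49) and 1.37-fold (1.32 to 1.43) higher in members.

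Genes of cell division had the largest ratios among genes ranked in both libraries. The members' Mki67 UMIs came from 24 parous and 104 virgin cells, and the top 5 cells held 56.8% and 24.0% of them. All 14 genes with the largest ratio in both libraries belong to division or are replication-dependent histone genes: Hist1h1b, Ccna2, Hist1h2ae, Kif11, Nusap1, Hist1h2ap, Ube2c, Mki67, Cdca3, Birc5, Top2a, Cdca8, Cit and Ccnb2. Mki67, the proliferation marker Ki-67, was at 68.1 against 11.6 CPM in the parous and 133 against 27.9 CPM in the virgin library. Of 26 cell cycle genes, 16 of 24 were higher in parous and 26 of 26 in virgin members (medians 1.47 and 1.997). With members chosen on thinned counts Hist1h1b and Hist1h2ae gave -0.29 and -2.28 in the virgin library. The Hist1 genes are close copies of each other, so their separate values are uncertain.

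Cells with at least 2 summed UMIs of Mki67 and Top2a were 21 parous members (5.32%) and 100 virgin members (17.2%). They held 10.5% and 34.8% of the members' UMIs, with medians of 8574 and 17758.5 UMIs against 4021.5 and 6088.5 in the other members. Per UMI they had less of the rule's messages than other members, 300.05 against 593 CPM of Ifng in the parous and 345 against 515 CPM in the virgin library. With the remaining T cells weighted to the members' UMI distribution the list's median was 1.21 and 0.48, and without these cells -0.07 over 12 genes measured and 0.96 over 19. With all UMIs, 30.0% of parous and 56.8% of virgin cells with Mki67 or Top2a met the rule. At 1400 UMIs per cell, 0 of 17 parous and 2 of 44 virgin ones did. At 2500 UMIs they were 2 of 34 parous (5.88%, 0.720 to 19.7) and 15 of 69 virgin cells (21.7%, 12.7 to 33.3). Of all T cells 8.78% and 10.99% met it at 2500 UMIs. The list's virgin median thus moved by more than 1.5-fold with depth weighting, and in the parous library 5 cells held 56.8% of the members' Mki67 UMIs.

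Members were found in every gene-defined set of T cells, at shares that differed between sets. With all UMIs, 61.2% (56.2 to 66.0) of virgin T cells with a Klrg1 UMI met the rule and 25.4% (19.2 to 32.5) of parous ones. Cells with Itga1 and Cxcr6 but no Itgae met it in 53.3% and 16.8% of cases, cells with Gzmk and Pdcd1 in 47.3% and 17.3%, and cells with Ly6c2 and Eomes in 40.3% and 21.0%. Itgae cells met the rule in 7.197% (4.39 to 11.01) of virgin and 16.4% (13.5 to 19.7) of parous cases. Cells with Car2 or Cdh1 had close values in the virgin and parous library, at 18.9% (12.3 to 26.9) and 18.3% (15.2 to 21.8), as were cells with Ikzf2 and a Ly49 gene (10.6% and 10.7%). Cells with Fcer1g or Tyrobp, adaptors better known from NK cells, stood at 37.2% and 12.5%.

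At equal depth the libraries lay close together in some sets and apart in others. At 1400 UMIs, with sets and rule both read from thinned counts, 15.0% (10.2 to 20.9) of virgin and 13.5% (7.17 to 22.4) of parous Klrg1 cells met the rule. Cells with Itga1 and Cxcr6 but no Itgae gave 11.4% and 10.0%, cells with Gzmk and Pdcd1 5.88% and 5.96%, and Itgae cells 5.80% and 5.02%. Cells with Ly6c2 and Eomes gave 15.2% (8.97 to 23.6) and 7.50% (3.49 to 13.8), and cells with Fcer1g or Tyrobp 7.55% (2.09 to 18.2) and 2.53% (1.27 to 4.48). The intervals of these 6 sets overlapped between libraries, and the sets held few cells at that depth. At 2500 UMIs the Gzmk and Pdcd1 cells were apart, at 27.2% (18.9 to 36.8) in the virgin and 13.3% (9.34 to 18.2) in the parous library, while Klrg1 cells stood at 27.2% (21.8 to 33.1) and 19.2% (12.2 to 28.1). Itgae cells had the opposite order there, at 3.03% (0.629 to 8.60) in the virgin and 10.5% (7.54 to 14.1) in the parous library. Within both libraries Klrg1 cells still met the rule more often than T cells at large (6.40% and 4.74%).

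**Figure D4:**
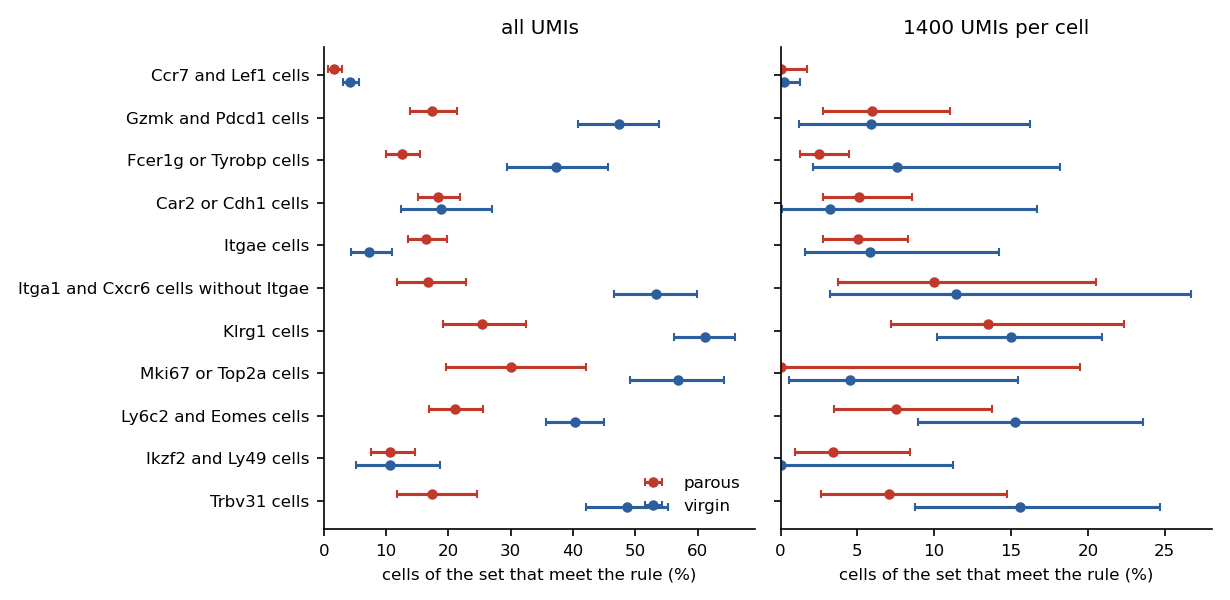
Share of the cells in each gene-defined set of T cells that met the rule (x axis, percent) with all UMIs (left) and with each cell thinned to 1400 UMIs (right), in the parous (red) and virgin (blue) library. Bars are exact 95% intervals for counting error, and the 2 panels have different scales. Klrg1 cells go from 25.4% and 61.2% to 13.5% and 15.0%.

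The make-up of the members by set differed between the libraries, and so did that of the remaining T cells. Klrg1 cells made up 42.4% (38.4 to 46.6) of virgin and 11.4% (8.43 to 14.9) of parous members. Itgae cells made up 3.28% (1.98 to 5.07) of virgin and 23.5% (19.4 to 28.04) of parous members, and Car2 or Cdh1 cells 3.97% and 25.6%. Fcer1g or Tyrobp cells were 9.31% and 18.7%. Of the remaining T cells, Klrg1 cells made up 8.14% (virgin) and 5.08% (parous), and Itgae cells 12.8% and 18.2%. Car2 or Cdh1 cells were 5.16% and 17.3% of the remaining T cells, and Fcer1g or Tyrobp cells 4.75% and 19.9%. With UMIs thinned to 1400 and members as chosen on all UMIs, Klrg1 was found in 18.9% of virgin and 5.64% of parous members and Itgae in 1.21% and 13.6%, so these orders did not turn with depth.

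T cell receptor beta segments gave a view of how varied the members' receptors were. A Trbv gene could be assigned in 306 parous and 486 virgin members. Trbv31 was the most frequent in virgin members, at 18.1% (14.8 to 21.8) against 5.47% (4.43 to 6.67) of the remaining T cells. In parous members the most frequent were Trbv13-3 (10.8%) and Trbv1 (10.5%), against 8.19% and 7.73% of the remaining T cells, and Trbv31 stood at 7.19% (4.56 to 10.7) against 5.2035%. The effective number of segments was 16.2 in parous and 15.4 in virgin members, against 16.6 and 17.8 in the remaining T cells.

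Among virgin members, the V beta segment Trbv31 was found more often in cells with Klrg1. With at least 2 Trbv31 UMIs asked for, 100 of 246 virgin Klrg1 members (40.7%, 34.5 to 47.1) carried the segment, against 41 of 156 remaining Klrg1 cells (26.3%, 19.6 to 33.9). Among cells without Klrg1 the shares were 4.19% of members and 4.49% of remaining T cells. In the parous library 8 of 45 Klrg1 members and 19 of 132 remaining Klrg1 cells carried it (17.8% and 14.4%). Parous members without Klrg1 carried it in 5.14% of cases (3.08 to 8.01), and the interval for parous Klrg1 members was 8.002% to 32.1%. Paired receptor chains were not used here, so clones were not counted.

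Members of the parous library were last set against those of the virgin library. Of 9095 genes measured, 579 were higher (6.37%) and 1620 lower (17.8%) in parous members, with a median log2 ratio of -0.16. Centred on that median, 929 were higher and 1069 lower. Parity, the pool of mice and the depth of the library cannot be told apart here.

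Parous members held more of the genes of tissue residency and of innate-like adaptors, and so did the remaining parous T cells. Of 25 tissue residency genes 17 were higher and 3 lower (median 0.78), and of 23 NK receptor and ITAM adaptor genes 8 of 13 measured were higher and 2 lower (median 1.81). The latter median was -0.19 with members chosen on thinned counts and -0.44 without the Fcer1g or Tyrobp cells. In the remaining T cells 18 of 25 tissue residency genes were higher in the parous library and 0 lower (median 1.06). Of the NK receptor and ITAM adaptor genes 13 of 19 were higher there and 1 lower (median 1.69). The 8 largest ratios were Clnk, Fcer1g, Osgin1, Adgrg1, Itgae, Cdh1, Spsb1 and Car2. Fcer1g was at 404 CPM in parous and 20.8 CPM in virgin members, and Cdh1, which encodes E-cadherin, at 40.9 and 2.53 CPM. The remaining T cells differed by about as much: the log2 ratio between libraries was 4.27 for Fcer1g and 3.97 for Cdh1 in members, and 4.27 and 3.64 in the remaining T cells.

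Itgae differed more among members than among remaining T cells. It was at 111 CPM in parous and 6.70 CPM in virgin members, a log2 ratio of 4.04 (16.4-fold, 11.6 to 24.2), while the remaining T cells gave 1.66. Car2, which encodes a carbonic anhydrase, gave 3.57 in members and 2.25 in the remaining T cells, and Hspa1a, a heat shock protein, 1.84 and -0.90. The inhibitor of E proteins Id3 was at 35.4 and 5.97 CPM in members (log2 2.56) and gave -0.21 in the remaining T cells. Whether the ratios of members and of remaining T cells differ was not tested.

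Virgin members held more of the genes of circulating effector cells, of division and of a few genes with UMIs in a minority of the cells. Circulating effector genes were lower in parous members for 7 of 12 measured and higher for 1 (median -0.61), and cell cycle genes for 25 of 26 (median -1.14). The remaining T cells had 15 of these 26 cell cycle genes lower in the parous library (median -0.84). Between members, Kif11, Mki67 and Nusap1 gave 0.15, 0.05 and 0.12 without the Klrg1 cells, and Top2a gave 0.34 without the Mki67 or Top2a cells. Klrg1 was at 262 CPM in virgin and 50.1 CPM in parous members, a log2 ratio of -2.38, and S1pr5, an exit receptor of effector cells, gave -2.79. Cd81, a tetraspanin, had 428 UMIs in 53 virgin members, 33 of them cells with Mki67 or Top2a, and 0 UMIs in parous members, at least 47.4-fold lower there with 3 UMIs as the floor. The remaining T cells held Cd81 in both libraries (4.69 and 8.75 CPM). Rasgrf1, a Ras exchange factor, had 71 UMIs in 43 virgin members and 0 in parous ones, at least 7.86-fold lower. Mt3, Cass4, Nrgn, Plk1 and Hist1h2af completed the 8 smallest ratios with Ccl1.

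Cytokine and receptor-induced genes were also set side by side between the libraries. Among members, the T cell receptor-induced list gave a median of 0.21 (7 higher and 4 lower of 29), against 0.17 for the same list in the remaining T cells. The other cytokines gave -0.34 (1 higher and 6 lower of 14), against -0.10 in the remaining T cells. Nr4a1 and Nr4a2 were at log2 0.77 and 1.11, Gadd45b at 0.64, Tbx21 at -0.18, Lag3 at -0.22 and Havcr2 at -0.29. Tnf was at 55.0 CPM in parous and 42.7 CPM in virgin members, 1.29-fold (1.01 to 1.63), and Gzmb at 1.25-fold (1.18 to 1.33). For Gzmb the remaining T cells stood 1.87 apart on the log2 scale, against 0.33 for members.

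**Figure D5:**
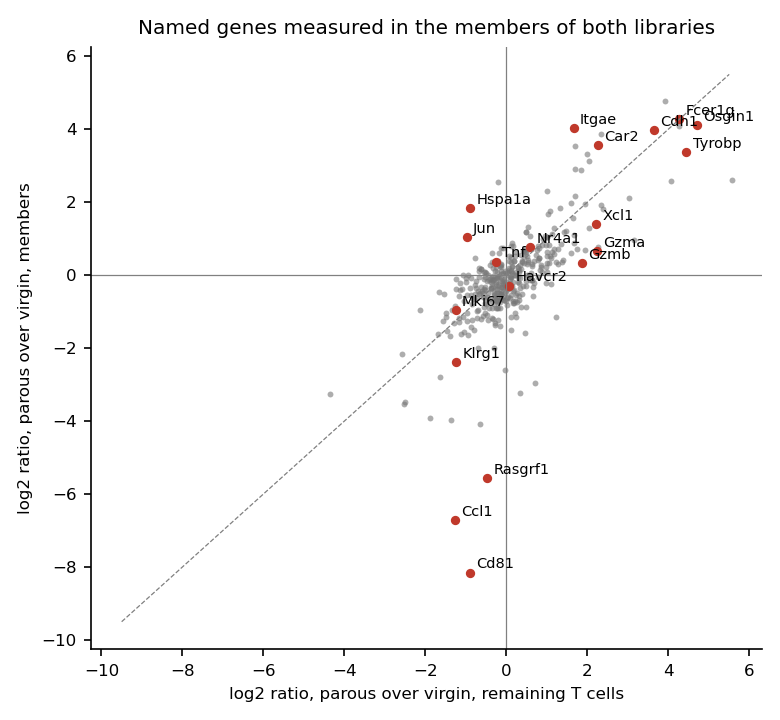
Log2 ratio of CPM, parous over virgin, in the remaining T cells (x axis) and in the members (y axis) for the 394 named or listed genes measured in members. The dashed line marks equal ratios. Itgae and Hspa1a lie above it, and Klrg1, Cd81, Ccl1 and Rasgrf1 lie below it; Cd81 and Rasgrf1 have 0 UMIs in parous members and are drawn with 0.5 added.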

How the data were processed

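The authors deposited raw UMI counts per gene and barcode, 1 matrix per library, made with 10x 5′ v2 kits per the labels' protocols. Cell Ranger 7.0.0, the build mm10, R 4.4.2 and Seurat are named per the submitters' processing notes, and how cells were called from barcodes is not given in the sources used here. The parous matrix held 4927 barcodes and 14676415 UMIs, the virgin matrix 2526 barcodes and 20166425 UMIs.

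Barcodes had to reach 500 genes and 1000 UMIs with a mitochondrial share below 10%, which kept 3019 parous and 2511 virgin cells, and T cells and members were chosen by the rule in the report. UMIs were summed over members and over remaining T cells of a library and compared as CPM, with 0.5 added to each count. A gene was measured where at least 10 UMIs were expected in the smaller set, and called at 1.5-fold. With 1 library per group nothing was tested. Intervals are exact at 95%, and 3 counts served as the floor for a count of 0. Shares were also taken with every cell thinned to 1400 or 2500 UMIs. Python 3.11.15, numpy 2.4.6, scipy 1.17.1, pandas 2.3.3 and scanpy 1.11.5 (Scrublet, expected doublet rate 0.06) were used. The code for the ratio and its interval was run on simulated Poisson counts. These lack the uneven spread between real cells, so the run does not check the intervals for such genes. Gene positions are from GENCODE and upstream sequences from RefSeq (GRCm38.p6).

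The members and the 29 gene lists (509 entries, 4 not matched) were chosen with earlier results of these data known. The text names the 14 genes with the largest and the 14 with the smallest ratio in the nearer-to-0 of the libraries, the 8 largest and 8 smallest between parous and virgin members, up to 6 genes per list, and a set list of genes. Alternatives were other thresholds, cell filters, scalings, cell weights and depths, and leaving out doublet calls, cells with Mki67 or Top2a, or cells with Ccr7 and Lef1. Thinning to 2500 UMIs, leaving out cells with Klrg1 or with Fcer1g or Tyrobp, and for the member share leaving out cells with Mki67 or Top2a or with Ccr7 and Lef1, were chosen after seeing the data. A few genes of the lists are not reported here by name.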

Additional observations from a re-analysis of the deposited data

Results flagged for a closer look

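For 4 of the named or listed genes the ratio of members over remaining T cells lay past 1.5-fold in opposite directions in the libraries, and the difference was not tested. Klra3, a Ly49 receptor gene with near-identical copies, gave a log2 ratio of -0.78 in the parous library (13 UMIs in 8 members) and 2.78 in the virgin library (380 UMIs in 63 members). Tnfsf11, which encodes the cytokine RANKL, gave -1.51 and 0.86. Hspa1a, a heat shock protein gene, gave 0.81 and -1.92. Cd74, the MHC class II invariant chain, gave -0.95 (14 UMIs in 6 members) and 2.72 (336 UMIs in 50 members). Cells outside the comparisons also met the rule for Ifng, Ccl3 and Ccl4: 10 parous barcodes that the cell filter removed, and 4 of 28 kept parous cells without a Cd3 UMI.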

How the results depend on the processing

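The share of T cells that met the rule followed its thresholds and the depth. In the parous library (13.2%) it was 4.74% at 1400 UMIs, 8.78% at 2500 UMIs, 5.12% at 1400 UMIs without the Ccr7 and Lef1 cells, 7.19% with at least 2 Ifng UMIs, 17.6% with at least 1 and 9.09% with at least 4 chemokine UMIs, 8.89% with no cell filter and 16.0% without the Ccr7 and Lef1 cells. In the virgin library (23.2%) the same settings gave 6.40%, 10.99%, 7.77%, 17.6%, 27.95% and 17.4%, then 38.1% without the Ccr7 and Lef1 cells, and 20.7% without the Mki67 or Top2a cells. Counts of higher and lower genes moved as follows. Median-of-ratios scaling gave 404 higher in parous members, 1284 and 1440 in virgin members, and 929 and 1069 between parous and virgin members. Thinning to 1400 UMIs gave 227 and 163, 479 and 265, and 310 and 478. Without a filter on low counts they were 4756 and 1653, 4625 and 2838, and 2667 and 3627. In virgin members 1281 were higher with depth weighting, 892 were higher without the Ccr7 and Lef1 cells, and 590 were lower without the Klrg1 cells. List medians changed sign for the other cytokines (virgin, thinned, -0.19), the chemokine receptors (virgin, without Ccr7 and Lef1 cells, -0.12), the gamma-delta markers (same setting, -0.0065), the CD4 and regulatory T cell markers (virgin, no low-count filter, -0.037), the cell cycle genes (parous, without Mki67 or Top2a cells, -0.074) and the NK receptor and ITAM adaptor genes between members (thinned -0.19, without Fcer1g or Tyrobp cells -0.44). Of single genes, Gzmb (parous, -0.0496), Hist1h1b (virgin, -0.29) and Hist1h2ae (virgin, -2.28) changed sign when thinned, and Hist1h2ae without the Mki67 or Top2a cells (parous, -0.29). Between parous and virgin members Kif11 (0.15), Mki67 (0.048) and Nusap1 (0.12) changed sign without the Klrg1 cells, and Top2a (0.34) without the Mki67 or Top2a cells. The causes were not tested. Of the other single-gene values under these alternatives, 1593 lay within the counting interval and 548 outside it with the same direction or from an uncalled value. No paired analysis was possible because each group has 1 library, and no replicate could be left out. Depth limits genes such as Havcr2, Csf1 and Csf2, with few UMIs in parous members.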
